A study of Drosophila melanogaster with 3 samples.

Results

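The genes described here encode the proteins of the mitochondrial ribosome in Drosophila melanogaster. They were taken as the protein-coding genes of the Ensembl dm6 annotation whose symbol begins with mRpL or mRpS and a number, for the large and the small ribosomal subunit. The rule found 73 of the 13968 protein-coding genes on the chromosome arms, 47 of the large and 26 of the small subunit. Chromatin immunoprecipitation followed by sequencing (ChIP-seq) had been carried out on whole prepupae, the stage at the onset of metamorphosis, with pooled males and females. The flies carried an eGFP exon inserted in an intron of CG16779, which yields a fusion protein under the control of the endogenous gene, and the tag was precipitated with an antibody to GFP. All libraries form 1 group of 3 biological replicates with no second genotype, stage or treatment, so no conditions are compared and the signal averages over every tissue of the animal.

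Mitochondrial ribosomes translate the few messenger RNAs made from mitochondrial DNA, which encode core subunits of the respiratory chain and the ATP synthase. Their RNAs come from the mitochondrial genome, while their proteins are encoded in the nucleus, made in the cytosol and imported. In compact genomes such as that of the fly, genes often lie head to head, and the stretch of DNA between their start sites can then serve as promoter region for both.

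The sequences below lie under the summit, the position of highest signal in a peak, at 6 mitochondrial ribosomal protein genes. They were taken from peaks outside annotated exons on arms 2L, 3L and 3R, and are shown because most of them lie between the gene and its head-to-head neighbour. They were read from the RefSeq genome of the same build as the peak lists, dm6, and are printed 5′ to 3′ on the strand of the named gene, with the 21 bases centred on the summit in capitals. For mRpS10 (chr3R:15229409-15229664, plus strand) and mRpL24 (chr2L:4945362-4945578, minus strand) the whole stretch between the start site of the gene and that of its neighbour is given, 256 and 217 bases. For mRpS23 (chr2L:13835416-13835516, minus strand), mRpL2 (chr3L:11120456-11120556, plus strand), mRpL20 (chr3L:13018076-13018176, minus strand) and mRpS6 (chr3L:4364354-4364454, plus strand) the 101 bases around the summit are given. The mRpL2 window lies in an intron of the neighbouring gene FoxK, and the others are intergenic.
mRpS23: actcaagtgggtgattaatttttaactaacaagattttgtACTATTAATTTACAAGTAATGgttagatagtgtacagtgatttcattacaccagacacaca
mRpS10: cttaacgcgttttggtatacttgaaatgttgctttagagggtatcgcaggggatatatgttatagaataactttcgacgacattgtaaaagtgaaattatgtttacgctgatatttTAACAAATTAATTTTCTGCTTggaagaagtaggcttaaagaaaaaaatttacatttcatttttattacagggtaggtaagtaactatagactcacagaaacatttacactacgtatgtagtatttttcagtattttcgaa
mRpL2: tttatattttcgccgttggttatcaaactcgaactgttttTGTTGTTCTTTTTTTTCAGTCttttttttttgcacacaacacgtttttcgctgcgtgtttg
mRpL24: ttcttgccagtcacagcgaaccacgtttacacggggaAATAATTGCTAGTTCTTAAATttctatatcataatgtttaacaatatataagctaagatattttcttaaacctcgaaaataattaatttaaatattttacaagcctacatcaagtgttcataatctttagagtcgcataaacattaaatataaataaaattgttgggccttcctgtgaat
mRpL20: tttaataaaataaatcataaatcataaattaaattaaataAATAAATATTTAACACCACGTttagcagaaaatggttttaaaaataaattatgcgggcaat
mRpS6: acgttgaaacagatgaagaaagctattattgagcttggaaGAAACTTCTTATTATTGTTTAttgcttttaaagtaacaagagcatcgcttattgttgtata
The capitals of mRpL2 hold an unbroken run of T, and the bases before the summit of mRpL20 are almost all A or T.

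Of the 73 genes, 10 had a summit of the authors' final peak set within 500 bp of an annotated start site. That set was cut by the irreproducible discovery rate (IDR), a measure of how alike peaks rank across replicates, and it holds 4805 regions on the arms. Each of the 10 genes had the same score and rank in it as in the authors' list pooled over all 3 replicates. Membership in the set is therefore not taken as separate evidence that a single peak reproduces. The 10 genes are 13.7% of the 73 (exact 95% binomial interval 6.77 to 23.8), against 1820 or 13.0% of all protein-coding genes, so the share was near that of the genome. It depended on the assignment: with a window of 250 bp 6 genes remained (8.22%, against 10.2% of all protein-coding genes), and when the peak interval had to overlap a start site 5 remained (6.85%, against 8.33%). The authors' IDR step was not repeated without a replicate. Sets built from the other 2 replicates held 9 of the 73 genes each, those among the 4805 strongest regions of both. These were 12.3%, against 7.53% of all protein-coding genes without replicate 1, 7.46% without replicate 2 and 11.3% without replicate 3. The sets hold 2784 to 3477 regions, fewer than the IDR set. In the IDR set both subunits were represented, with 6 of 47 large subunit genes (12.8%) and 4 of 26 small subunit genes (15.4%). The intervals cover counting error over genes only.

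Most of the peaks that were present were strong: 7 of the 10 genes had scores above the median of the IDR set, 279, and 3 had scores below it. The median IDR score at the 10 genes was 694 (median rank 447 of the 4805), against 310 (rank 2008) over all protein-coding genes with an IDR summit. Of the 10 genes, 7 had a summit within the first 1000 ranks, against 29.9% of the 1820 genes. The score is the authors' own for each peak, and its lowest value in the IDR set was 174. The scores fell into separate ranges, with 7 genes between 643 and 2223 and 3 genes between 178 and 245, and no gene in between.

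The strongest peak within 500 bp of any of these genes was at mRpS23, which encodes a small subunit protein without a bacterial counterpart. Its interval spans chr2L:13835300-13835652 with the summit at 13835466, a score of 2223 and rank 19. In replicates 1, 2 and 3 the gene's strongest region ranked 32, 16 and 18 of 30000, with scores of 625, 674 and 943 on each list's own scale. The summit lay 394 bp upstream of the mRpS23 start and 98 bp from the start of CenG1A, which encodes an Arf GTPase-activating protein, and the interval covered the CenG1A start but not that of mRpS23.

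The next peaks were at mRpL41, mRpS10 and mRpL23. mRpL41 encodes a mitochondria-specific large subunit protein, and its peak (chr2R:15217594-15217916, summit 15217751, score 1794, rank 34) lay 134 bp upstream of its start. It ranked 75, 95 and 17 in replicates 1, 2 and 3, with scores of 471, 392 and 944. The mRpS10 protein sits in the head of the small subunit, as its bacterial homologue does. Its peak (chr3R:15229375-15229703, summit 15229535, score 1667, rank 46) ranked 83, 76 and 28, with replicate scores of 453, 419 and 792. The summit fell almost midway between its start, 130 bp away, and that of Art3, an arginine methyltransferase gene, 127 bp away. mRpL23 encodes a protein that in bacteria lines the exit of the nascent peptide. Its peak (chr3L:2373472-2373758, summit 2373621, score 1129, rank 146) ranked 221, 240 and 90, with scores of 307, 274 and 535. This was the single summit downstream of the gene's nearest start, by 57 bp, within the 5′ untranslated region of mRpL23. All 4 genes from mRpS23 to mRpL23 thus ranked within the first 240 regions of every replicate.

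Of the 7 strong peaks, 3 had scores between 643 and 694 and lay at large subunit genes. mRpL2, whose bacterial homologue lies next to the catalytic centre, had a peak at chr3L:11120404-11120628 (summit 11120506, score 694, rank 446), 341 bp upstream of its start and inside an intron of FoxK, a forkhead transcription factor gene. It ranked 421, 312 and 706 in replicates 1, 2 and 3, with scores of 240, 250 and 219. A second region, of lower score and outside the IDR set, lay nearer the mRpL2 start. Its summit was 142 bp from that start in the pooled list and 139, 133 and 110 bp in replicates 1, 2 and 3. mRpL24, whose bacterial homologue takes part in the assembly of the large subunit, had a peak at chr2L:4945423-4945614 (summit 4945531, score 693, rank 449), 170 bp upstream. Its ranks of 1047, 811 and 224 and scores of 154, 158 and 383 placed it higher in replicate 3 than in the other two. mRpL20, also an assembly protein in bacteria, had a peak at chr3L:13018007-13018269 (summit 13018126, score 643, rank 535), 259 bp upstream, with ranks of 460, 609 and 617 and scores of 230, 182 and 233. These 3 genes were within the first 1047 ranks of every replicate.

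The 3 weaker peaks were at mRpS6, mRpL34 and mRpS16, all named after bacterial ribosomal proteins. At mRpS6 (chr3L:4364184-4364623, summit 4364404, score 245, rank 2926) the replicate ranks were 2968, 3806 and 2679, with scores of 87.4, 69.9 and 98.4. At mRpL34 (chr2R:16098258-16098697, summit 16098478, score 220, rank 3413) they were 2157, 4870 and 6234, with scores of 105, 60.0 and 53.0. At mRpS16 (chr2R:14173505-14173944, summit 14173725, score 178, rank 4677) they were 4552, 8975 and 2309, with scores of 67.5, 38.5 and 108. The mRpS16 score was close to the lowest of the IDR set, and mRpL34 and mRpS16 were the genes that dropped out of the 4805 strongest regions in at least 1 replicate. All 10 genes had a region in every replicate list.

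**Figure D1:**
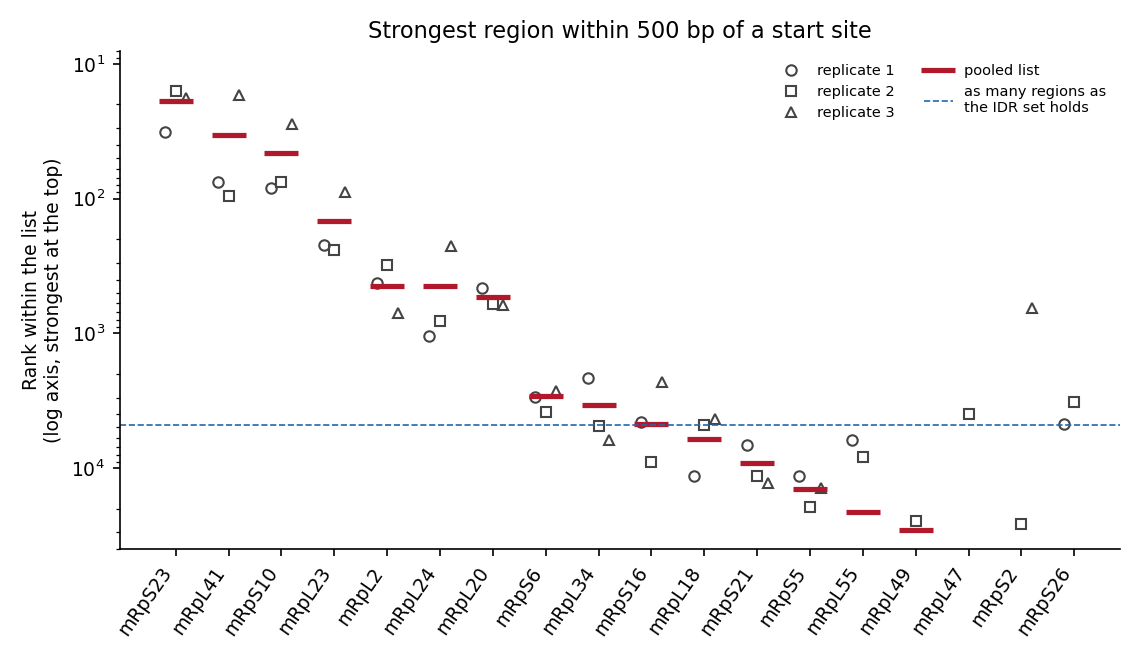
Rank of the strongest region within 500 bp of a start site (log axis, strongest at the top) for the 10 genes with an IDR summit, the 5 further genes of the pooled list and 3 genes with a region in replicate lists alone; red bars give the pooled list, open symbols the replicates, and the dashed line stands at 4805 regions. The 7 strong genes lie above the line in every replicate, mRpS16 and mRpL34 straddle it, and mRpS2 stands at rank 652 in replicate 3 and 26032 in replicate 2.

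The position of the summit was repeatable at the strong peaks and looser at the weak ones. Among the 7 strong genes, the distance from summit to start differed between replicates by 5 bp at mRpL41, 11 bp at mRpS10, 13 bp at mRpL2, 22 bp at mRpL23, 27 bp at mRpS23, 33 bp at mRpL20 and 52 bp at mRpL24. At mRpS6 it differed by 80 bp, at mRpS16 by 170 bp and at mRpL34 by 209 bp, so the 3 weak genes had the widest spans. The summit was upstream of the gene's nearest start in 9 of the 10 genes, against 70.2% of all protein-coding genes with an IDR summit.

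The head-to-head arrangement was common among these genes. A divergent protein-coding neighbour, with its start on the other strand and at most 1000 bp upstream, was present for 58 of the 73 genes (79.5%), against 36.2% of all protein-coding genes. The distance between the start sites had a median of 283 bp, with a range of 20 to 793 bp, against a median of 298 bp over all protein-coding genes with such a neighbour. In no case was that neighbour itself a mitochondrial ribosomal protein gene.

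All 10 genes with an IDR summit were among those 58. With a divergent neighbour, 10 of 58 genes (17.2%, interval 8.59 to 29.4) had an IDR summit, against 16.5% of all protein-coding genes with one. Without such a neighbour, 0 of 15 genes had an IDR summit (interval 0 to 21.8%), against 11.1% of all protein-coding genes without one. In each class the interval of the mitochondrial ribosomal protein genes includes the value over all protein-coding genes.

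In 9 of the 10 genes the summit was also within 500 bp of a start of the divergent neighbour, against 29.8% of the 1820 genes with an IDR summit. That share includes genes without such a neighbour, and among the 833 genes with an IDR summit and a divergent neighbour it was 65.2%. With a window of 250 bp, 4 of 6 genes shared the summit, against 44.3% of all protein-coding genes with an IDR summit and a divergent neighbour. The exception was mRpL41, whose neighbour CG8079 starts 762 bp away and 628 bp from the summit, although a long noncoding RNA gene, lncRNA:CR44463, starts 444 bp away from the summit. Of the 9 shared summits, 5 were intergenic and 4 lay inside a gene of the pair. Besides CenG1A, Art3 and FoxK, the neighbours were CG9004, betaggt-I for a subunit of a protein prenylation enzyme, Icmt for an enzyme that methylates prenylated proteins, Cip4 for an F-BAR membrane protein, Dg for dystroglycan, and cg for the zinc finger protein combgap.

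Most shared summits lay nearer the neighbour. In 7 of the 9 genes the neighbour's start was the nearer one, against 49.4% of the 543 protein-coding genes that share an IDR summit. Both genes of a pair enter that share, which sets it near this level whatever the positions, so it is not an independent background. The strongest summits in replicates 1, 2 and 3 gave 6, 6 and 7 of the 9 genes, since the mRpS10 summit was nearer its own start in replicates 1 and 2. The summit was 48 bp from the start of betaggt-I, 140 bp from Icmt, 95 bp from the nearest start of FoxK, 86 bp from Dg and 32 bp from cg. At Dg and cg it lay in the neighbour's 5′ untranslated region, 470 bp from mRpL34 and 129 bp from mRpS16. The opposite held at mRpL23, 57 bp from its own start and 107 bp from CG9004, and at mRpS6, 146 bp from its own start and 302 bp from Cip4. The peak interval covered the start of the mitochondrial ribosomal protein gene in 5 of the 10 genes and that of the neighbour in 8, and it covered both at mRpS10, mRpL23 and mRpS16. Chromatin had been sheared to fragments of 200 to 800 bp, per the labels, and all 9 pairs have start sites less than 500 bp apart, so which gene of a pair the signal belongs to cannot be told apart.

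**Figure D2:**
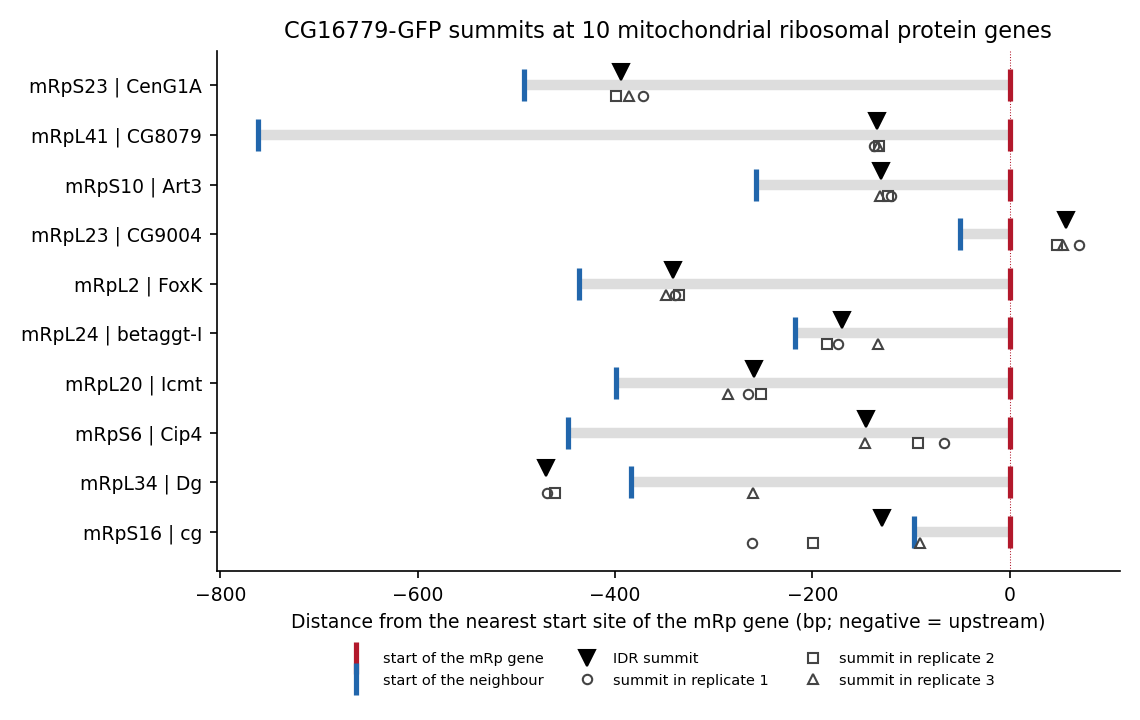
Distance in bp from the nearest start site of each of the 10 genes (red bar at 0) to the IDR summit (filled triangle), the summits in replicates 1 to 3 (open symbols) and the divergent neighbour's start nearest to the summit (blue bar); negative values are upstream, and mRpL23 has 3 start sites, of which the one nearest the summit is at 0. Summits at mRpL34 and mRpS16 lie past the neighbour's start, and the one at mRpL23 lies 57 bp downstream of its own nearest start. Those of replicates at mRpL34 and mRpS16 are the most spread.

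The other 63 genes had no IDR summit within 500 bp. In 2 of them an IDR summit just missed the window, at 533 bp from mRpS31 and 698 bp from mRpL55. For 14 genes the nearest IDR summit was more than 1000 and at most 5000 bp away, and for 47 it was farther. The median distance was 8087 bp over the 73 genes, against 10651 bp over all protein-coding genes.

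The peaks were spread over the autosomal arms, with 2 of 12 genes on 2L, 3 of 12 on 2R, 4 of 17 on 3L and 1 of 21 on 3R. Shares over all protein-coding genes of each of these arms are not given here, so the arms are not compared. On the X chromosome 0 of 11 genes had an IDR summit (interval 0 to 28.5%), against 285 of 2196 or 13.0% of all protein-coding genes of that chromosome, a value within the interval.

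In the pooled list of 30000 regions, which includes weak ones, 15 of the 73 genes (20.5%, with an interval up to 31.6) had a summit within 500 bp, against 32.0% of all protein-coding genes. The 10 genes with an IDR summit are among the 15, so the list added 5 of 63 genes (7.94%), against 21.8% of the protein-coding genes without an IDR summit. Few of these genes have alternative start sites: 67 of 73 (91.8%) have 1 start site, against 73.5% of all protein-coding genes, and a gene with more starts has a wider search area. Among genes with 1 start site, 12 of 67 (17.9%, interval 9.61 to 29.2) had a pooled summit and 8 (11.9%, interval 5.30 to 22.2) an IDR summit, against 23.3% and 7.64% of all protein-coding genes with 1 start site.

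The 5 added genes had weak regions. mRpL18 had a score of 146 at rank 6118, 170 bp upstream of its start and close to Taz, the tafazzin gene, which starts 20 bp from mRpL18. Its replicate scores were 35.5, 60.5 and 70.0 at ranks 11410, 4802 and 4314, so it passed into the 4805 strongest regions of replicates 2 and 3. The pooled list held 3 summits within 500 bp of mRpL18, the nearest 33 bp from its start. The replicate 3 summit lay 18 bp from that start. mRpS21 had a score of 104, 305 bp from its start and next to Droj2, a DnaJ chaperone gene, with replicate scores of 52.2, 31.4 and 32.1. mRpS5 had a score of 72.6, with replicate scores of 35.4, 20.4 and 30.4. These 3 genes had a region in every replicate. mRpL55, head to head with the ATP synthase gene ATPsynD, had 53.3 in the pooled list, 54.8 and 40.7 in replicates 1 and 2, and no region in replicate 3. mRpL49 had 41.9, with a region in replicate 2 alone, at 16.4.

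Replicate lists of 30000 regions gave unequal counts. A summit lay within 500 bp of 25, 31 and 16 of the 73 genes in replicates 1, 2 and 3, or 34.2, 42.5 and 21.9%, against 37.6, 41.0 and 28.5% of all protein-coding genes. The mean was 32.9% ± 10.3 for the mitochondrial ribosomal protein genes and 35.7% ± 6.47 for all protein-coding genes (SD, n = 3). Both shares come from the same 3 lists, so these SDs do not measure the spread of their difference. The share of the mitochondrial ribosomal protein genes was the lower in replicates 1 and 3 and the higher in replicate 2. Replicate 3 had the lowest share for both groups of genes.

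The counts were equal once each list was limited to its 4805 strongest regions. Then 11 of the 73 genes (15.1%) had a summit in each of the 3 replicates, against 14.5, 15.8 and 11.4% of all protein-coding genes, with a mean of 13.9% ± 2.25 (SD, n = 3). The equal count hides some exchange of genes. In all 3 replicates 8 genes were present, each pair of replicates shared 9, and 14 genes appeared in at least 1. Sets built from 2 replicates held 12.3% of the 73 genes, against 7.46 to 11.3% of all protein-coding genes. For the counts of 8 and 14, shares over all protein-coding genes are not given here. The 4 genes of the 14 without an IDR summit were mRpL18, mRpL47, mRpS2 and mRpS26.

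Of these 4, mRpS2 showed the largest disagreement between replicates. This gene, whose bacterial homologue belongs to the small subunit, lies head to head with Mon1. In replicate 3 it had a score of 229 at rank 652 with the summit 169 bp away, in replicate 2 a score of 15.7 at rank 26032, and in replicate 1 the nearest summit was 2465 bp away. The pooled list had no summit nearer than 2478 bp. mRpS26 had scores of 65.9 and 77.7 at ranks 4721 and 3212 in replicates 1 and 2, while the nearest summits were 20622 bp away in replicate 3 and 5147 bp away in the pooled list. mRpL47 had a region in replicate 2 alone, at rank 3995 with a score of 68.0. These 3 genes were singled out after their values were seen.

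**Figure D3:**
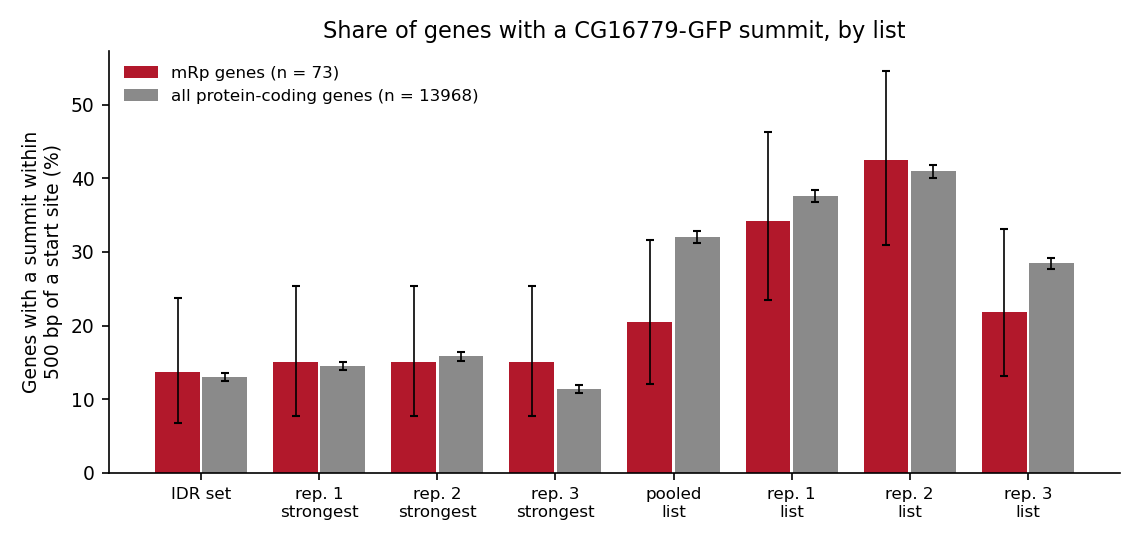
Percentage of genes with a summit within 500 bp of a start site in each list, for the 73 mitochondrial ribosomal protein genes (red) and all 13968 protein-coding genes (grey), with exact 95% binomial intervals; "strongest" means the first 4805 regions of a replicate. The red bar is at 13.7% in the IDR set and 15.1% in each strongest set, and lies furthest below grey in the pooled list, at 20.5% against 32.0%.

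Altogether 22 genes outside the pooled list had a region in a replicate list, 11 of each subunit. Of them 14 had a region in 1 replicate list, 8 in 2 and 0 in all 3. Their scores ranged from 19.1 to 65.9 with a median of 25.6 in replicate 1 (11 genes), from 14.6 to 77.7 with a median of 30.2 in replicate 2 (16 genes), and were 25.1, 32.9 and 229 in replicate 3 (3 genes). The remaining 36 genes had no region within 500 bp in any of the 5 lists. Shares over all protein-coding genes are not given here for the 22 or the 36 genes, so neither count is compared with the genome.

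Other genes of mitochondrial translation and its support had no IDR summit at their starts. The list held translation factors, mitochondrial aminoacyl-tRNA synthetases and proteins of mitochondrial DNA replication and transcription, and 0 of its 40 genes had one (interval 0 to 8.81%), against 13.0% of all protein-coding genes. Among all protein-coding genes with 1 start site the share was 7.64%, a value within that interval. The number of start sites of the 40 genes is not given here. In the pooled list 5 of the 40 had a summit within the window, against 32.0% of all protein-coding genes and 23.3% of those with 1 start site. They were mIF2 (initiation factor, score 158), mtSSB (DNA-binding protein, 129), PolrMT (RNA polymerase, 116), ArgRS-m (arginyl-tRNA synthetase, 112) and ProRS-m (prolyl-tRNA synthetase, 57.6). tko and bonsai, which are among the 40 and encode mitochondrial ribosomal proteins under other symbols, had no region in any list. Of the nuclear genes for oxidative phosphorylation 2 of 87 (2.30%) had an IDR summit, and of the cytosolic ribosomal protein genes 46 of 93 (49.5%, interval 38.9 to 60.0), beside the same 13.0%. These lists were compared by their counts alone.

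**Figure D4:**
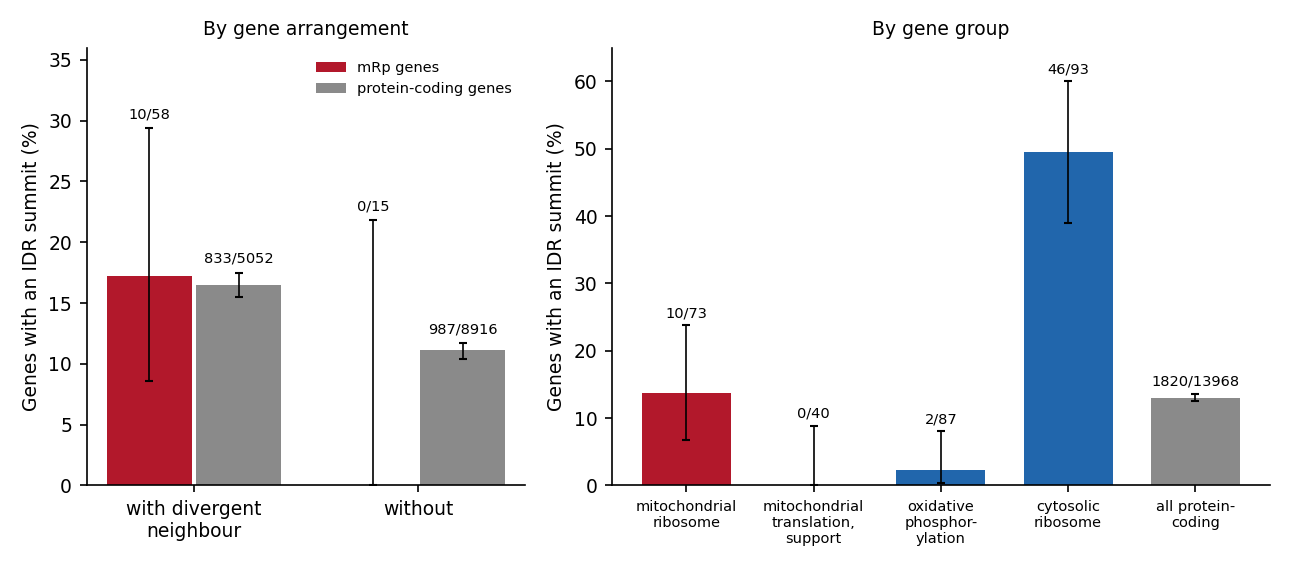
Percentage of genes whose start site has an IDR summit within 500 bp, with exact 95% binomial intervals and the counts above each bar. Left, mitochondrial ribosomal protein genes (red) and all protein-coding genes (grey) with and without a divergent neighbour within 1000 bp, at 17.2% against 16.5% and 0% against 11.1%. Right, 5 gene groups, from 0% of 40 genes of mitochondrial translation and its support to 49.5% of 93 cytosolic ribosomal protein genes.

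The bases under the summits were rich in A and T at the strong peaks. In the 101 bases around the summit, G and C made up 29.7% at mRpS23, 22.8% at mRpL41, 24.8% at mRpS10, 23.8% at mRpL23, 33.7% at mRpL2, 32.7% at mRpL24 and 17.8% at mRpL20. Of the 3 weak genes, mRpS6 had 29.7%, mRpL34 46.5% and mRpS16 48.5%. The median of the 10 genes was 29.7%, against 41.6% over the 1870 IDR summits at protein-coding start sites. That share changed with the score in general, with a median of 30.7% in the 374 summits with the highest scores and 39.6, 44.1, 44.6 and 45.5% in the following sets of 374, so the strong genes lay near the strong summits of other genes. The promoter windows, from 250 bases before to 50 after the outermost start, had a median of 33.8% at the 10 genes with an IDR summit, against 35% at the 63 genes without one.

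**Figure D5:**
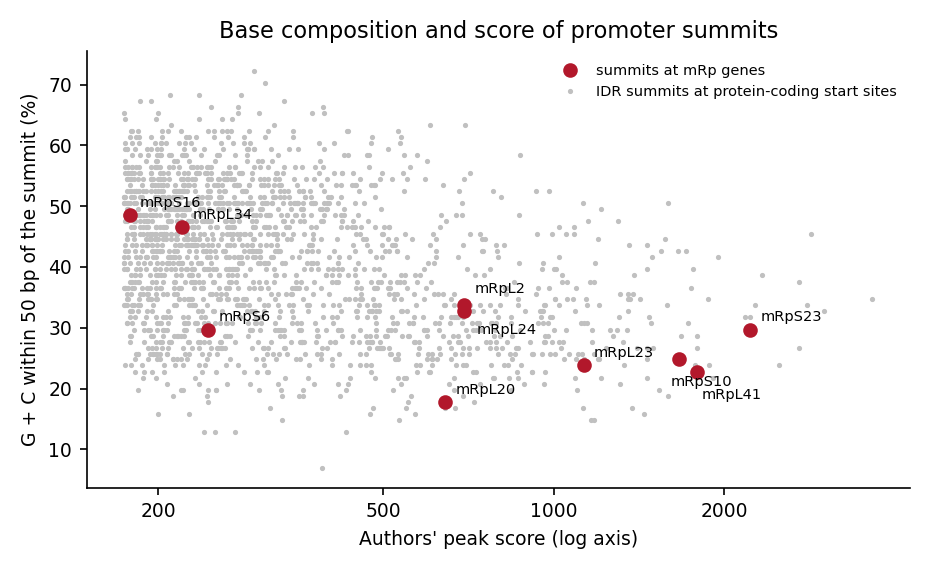
Percentage of G and C in the 101 bases around the summit against the authors' peak score (log axis), for IDR summits at the 10 mitochondrial ribosomal protein genes (red, named) and for the 1870 IDR summits at protein-coding start sites (grey). The 7 red points with scores of at least 643 lie between 17.8 and 33.7%, and mRpL34 and mRpS16 lie at 46.5 and 48.5%.

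Short promoter motifs were looked up letter by letter on both strands of the same promoter windows, a match being a description of the letters and not of a bound factor. The DNA replication-related element (DRE, TATCGATA) was present in 15 of 73 promoters (20.5%), against 9.36% of all protein-coding promoters. It was in 2 of the 10 with an IDR summit (mRpL20 and mRpS23) and in 13 of the 63 without (20.6%). The motif 1 core (GGTCACACT) was in 8 promoters (11.0%, against 6.04%), with mRpS16 among the 10, and the E-box (CACGTG) in 5 (6.85%, against 4.20%), with mRpL23 among the 10. The GAGA repeat (GAGAGA) was in 5 (6.85%), against 12.3% of all protein-coding promoters, with mRpL2 among the 10. The Ets core (CCGGAAG) and the NRF1/ewg motif were in 0 of the 73, against 1.09% and 0.723%. The TATA box (TATAAA) was in 34 (46.6%), against 45.8%. Within 50 bp of the 10 summits the TATAAA letters occurred at mRpL23 and mRpL2 and the other 6 motifs at none, while TATAAA was within 50 bp of 18.1% of all IDR summits and the GAGA repeat of 8.66%. The motifs were searched independently of each other, so a window may count for several.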

How the data were processed

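ChIP-seq peak lists from whole prepupae with eGFP-tagged CG16779 were used, in 1 group of 3 biological replicates. Per the file listings, the authors made each replicate's list from its alignments and 1 further input file shared by all replicates, the pooled list from all 3 replicates, and the IDR set from these lists. The deposited score of a region is the authors' own, on a scale of its own in each list, and was used only to rank and describe regions within a list. For the aligner, the peak caller and the threshold of the IDR step, names and values were not given in the sources used here. Read depth is unknown, and control libraries were not analysed here.

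Coordinates are dm6, printed 1-based, and 0 regions exceeded the length of their arm. Genes and start sites came from Ensembl release 115. A region was assigned to every gene with a start site within 500 bp of its summit. Divergent neighbours are protein-coding genes on the other strand with starts at most 1000 bp upstream. Of the 4822 IDR regions, 17 on the mitochondrial genome were left out, which left 4805, and that number of strongest regions was compared per replicate. Intervals are exact 95% Clopper-Pearson. No tests were made, because there is 1 group, and the assignment was tested on simulated data.

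The members, gene lists and motifs were chosen with earlier results of these data known. Named were all genes with an IDR summit, the 5 next in the pooled list, those with an IDR summit 501 to 1000 bp away, tko and bonsai. Of the 42 symbols of the mitochondrial translation list, 40 matched. The alternatives were other windows, start sites, numbers of regions and neighbour definitions, and leaving out each replicate. Lists on the dm3 build were not used. Python 3.11.15 with numpy 2.4.6, pandas 2.3.3 and scipy 1.17.1 was used.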

Additional observations from a re-analysis of the deposited data

How the results depend on the processing

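With a window of 250 bp in place of 500 bp, 6 of the 73 genes had an IDR summit, against 10.2% of all protein-coding genes, 4 shared it with a divergent neighbour, and a mean of 7 genes had a summit among the strongest regions of a replicate. When the interval had to overlap a start site, 5 genes had an IDR peak, against 8.33% of all protein-coding genes. Sets built without 1 replicate held 9 to 9 genes (12.3%), against 7.46 to 11.3% of all protein-coding genes, and contain fewer regions by construction. Each lost mRpL34, those without replicates 1 and 3 also lost mRpS16, and mRpL18 entered without replicate 1 and mRpS26 without replicate 3. The mean number of genes among the strongest regions was 11.0 to 11.0 when 1 replicate was left out. Under the other alternatives each count of genes was within 1.5 times the reported one, from 7 to 12 genes for the IDR set, 10 to 19 for the pooled list and 9 to 12 for shared summits. No paired comparison of conditions was possible because the labels define 1 group.

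With 73 genes the interval around 13.7% spans 6.77 to 23.8%, so a moderate difference from the 13.0% of all protein-coding genes was not detectable at this number of genes. The lists give no read counts, and a gene without a region may have signal below the listed regions.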

Other observations

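The deposited IDR set also held 17 regions on the mitochondrial genome, which carries the ribosomal RNAs of the same ribosome. They have no nuclear start site and entered no count.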
